A study of Mus musculus with 3 samples.

Results

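The retrosplenial area (RSP) was examined in 3 Visium sections of mouse brain through the 356 spots that carry its label, of 8549 spots in all. They number 120 of 2881 in the CON section, 125 of 2828 in the RES section and 111 of 2840 in the SUS section. A spot is a small region of tissue that can hold several cells, and was chosen here only by the area the authors assigned to it. Per the study's methods, that assignment drew on the stained image, a brain atlas and marker genes, so it is not independent of expression. The 1957 spots of the other 4 Isocortex areas served for comparison. These are the posterior parietal association area (PTL), the primary somatosensory area (SSp), the auditory area (AUD) and TEP, which joins temporal association, entorhinal and perirhinal cortex.

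Each section came from 1 male C57BL/6J mouse of 8 weeks, and was 10 μm thick and taken from the left side of the brain. Mice of the RES and SUS groups underwent 10 days of chronic social defeat stress (CSDS), in which a larger aggressive mouse attacks the animal daily. A social interaction ratio above 1 defined RES (resilient) and a ratio below 1 SUS (susceptible). The CON mouse had daily contact with a peaceful mouse of its own strain and the same separation by a plate. All brains were collected 1.5 h after the last exposure, rinsed in cold salt solution to take off blood, and frozen. No condition has a second section, so every difference between sections below compares those 3 sections and cannot be told apart from a difference between animals, slides or libraries.

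The retrosplenial cortex lies along the midline at the back of the cerebral cortex, above the white matter of the corpus callosum. It exchanges fibres with the hippocampal formation, the anterior thalamus and visual areas, and is known for its part in spatial memory, orientation and memory of threatening contexts. Its layers run from the pial surface down to the white matter, and its inner face turns down into the midline fissure. The measures available for each spot are its number of unique molecular identifiers (UMIs, each counting a captured RNA molecule once), its number of genes with at least 1 UMI, and 3 percentages. The mitochondrial percentage covers transcripts of the mitochondrial genome, which encodes subunits of the respiratory chain. The ribosomal percentage covers genes for proteins of the ribosome, and the red blood cell percentage covers genes of red blood cells, such as the haemoglobins that carry oxygen. Counts per gene were not analysed here, so no gene and no cell type of RSP is described.

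With no gene values the label could not be checked against markers, and its place is given as a description. In every section the RSP spots formed 1 patch at the medial end of the Isocortex, 950 μm wide in CON and 900 μm in RES and in SUS. The patch was 1299 μm high in CON, 1386 μm in RES and 1126 μm in SUS, on a grid with 100 μm between neighbouring spots. Among the listed neighbours of RSP spots 93.0% (CON), 93.6% (RES) and 93.1% (SUS) were RSP, and all the others were PTL or FB (fiber tracts, the white matter). PTL touched 13, 13 and 11 RSP spots, and FB touched 11, 10 and 11, in the order CON, RES, SUS that is kept throughout. On the outer surface, 13, 11 and 11 RSP spots adjoined slide that no tissue covers. On the medial side, 12, 13 and 11 adjoined tissue that the position lists mark as covered but that has no row in the table of spots. Of such covered places outside the table, 906 of 911 in CON, 996 of 1033 in RES and 946 of 950 in SUS lay on the medial side of RSP. The medial limit of RSP is therefore the limit of the table and not of the tissue.

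RSP took 16.6% of the Isocortex spots for CON (exact Clopper-Pearson 95% interval 14.0 to 19.5), 15.4% for RES (12.9 to 18.0) and 14.3% for SUS (11.9 to 17.0). The mean number of RSP spots per section was 118.7 ± 7.09 (SD, n = 3). All intervals over spots cover counting error within 1 section only. Capture places are shared by design, and 18 barcodes were RSP in all 3 sections, of 2321 barcodes that are listed in all 3. A barcode marks a place on the slide, so these are not shared cells.

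**Figure D1:**
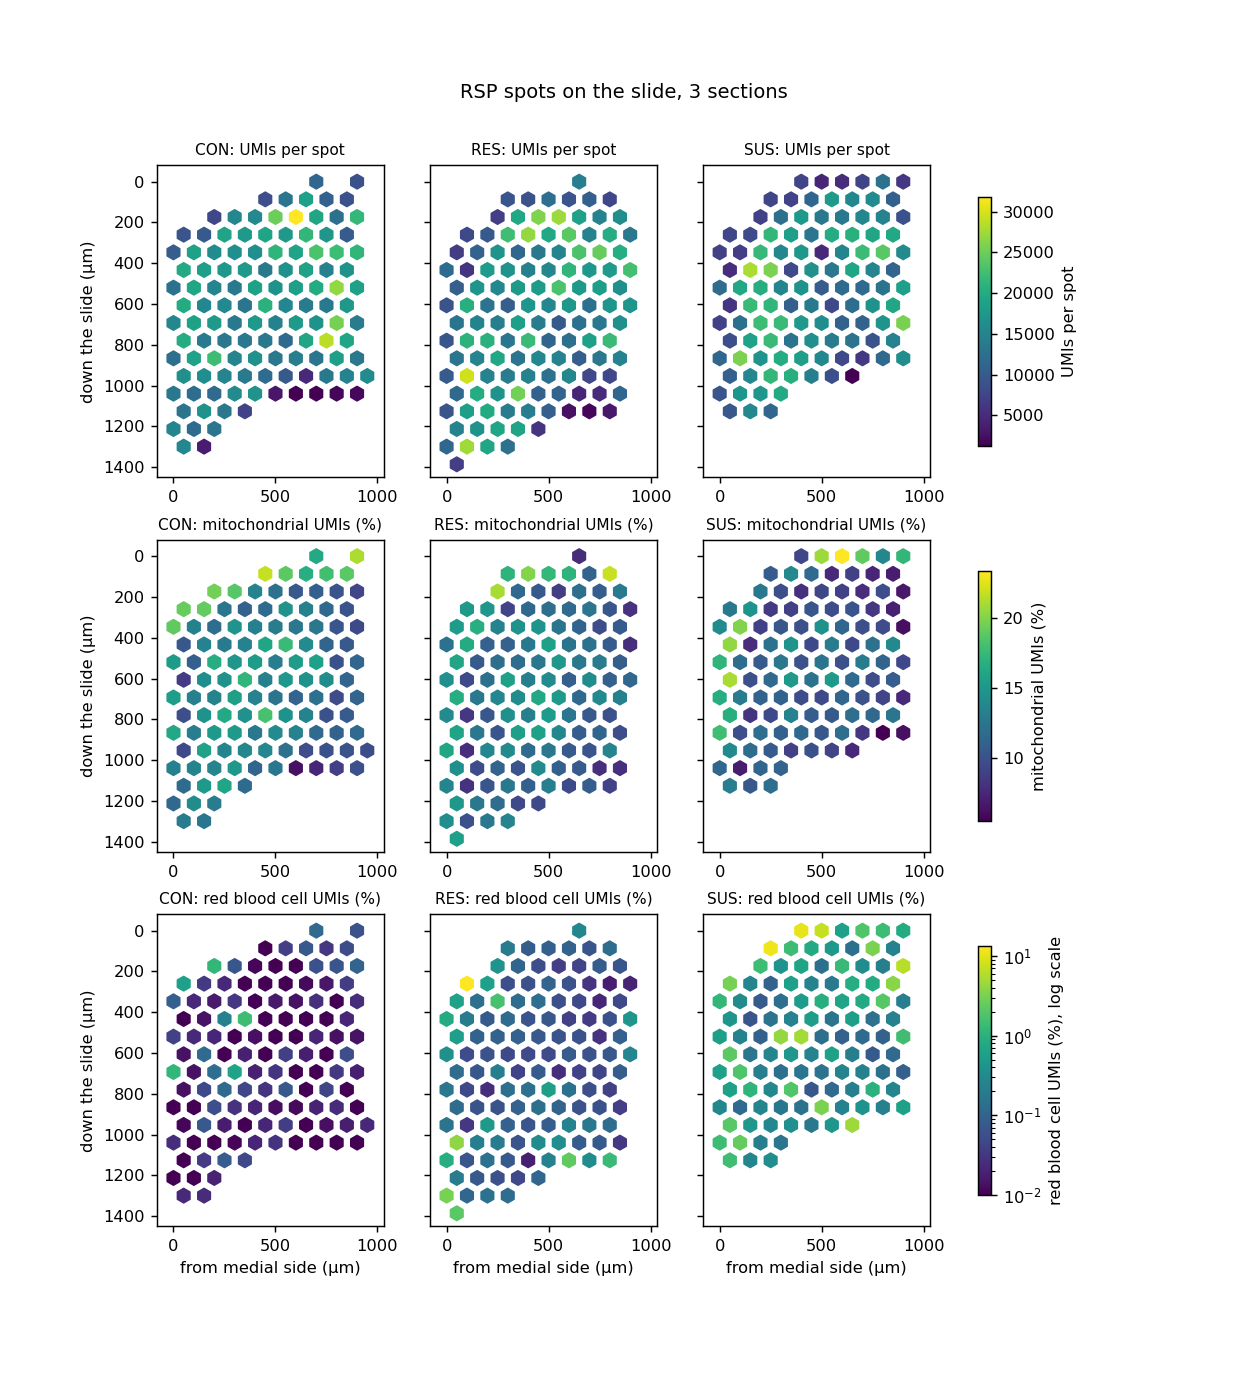
RSP spots of the 3 sections (CON, RES, SUS) at their places on the slide, in μm from the medial side and down from the uppermost RSP spot, coloured by UMIs, mitochondrial percentage and red blood cell percentage (log scale, values under 0.01% drawn at 0.01%). Low UMI values lie along the lower border with white matter, along the surface and, in RES and SUS, along the medial side, and the brightest mitochondrial spots lie along the surface and, in SUS, also along the medial side.

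The depth of RSP in deposited UMIs was much the same in the 3 sections. The lowest, median and highest RSP spot had 1208, 15412.5 and 31846 UMIs in CON. In RES they had 1636, 14665 and 29598 UMIs, and in SUS 1308, 14739 and 27961. Order-statistic 95% intervals of these medians were 14324 to 16671, 13531 to 15425 and 12609 to 15715, and they overlap in all pairs. The middle 50% of spots spanned 13145.8 to 18549.8, 11124 to 18352 and 10240.5 to 18257.5 UMIs, so that the spread among spots was widest in SUS. CON had a median of 5258 genes, RES 5054 and SUS 4978. Together the RSP spots held 1834769, 1861651 and 1582441 UMIs, which is 4.89%, 5.97% and 4.52% of their sections.

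Against the rest of the Isocortex of the same section, RSP was neither clearly deeper nor shallower in deposited UMIs. These appear to leave out mitochondrial transcripts, of which RSP had the highest share in the Isocortex. Total depth was therefore not compared. The ratio of its median UMIs to that of the other areas was 0.930 (interval 0.848 to 1.03) for CON, 1.006 (0.906 to 1.08) for RES and 0.992 (0.816 to 1.12) for SUS. The mean ratio of 0.976 ± 0.0402 (SD, n = 3) lies within its spread of 1. For genes the mean ratio was 0.984 ± 0.0206. Against single areas the order was steadier, since RSP had fewer UMIs than PTL and than SSp in 3 of 3 sections, at mean ratios of 0.917 ± 0.0355 and 0.918 ± 0.0327. Against TEP the ratio ranged from 0.974 in CON to 1.54 in SUS.

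Because deeper spots show more genes, genes were also compared at matched UMIs, by dividing the genes of each RSP spot by the median of the other Isocortex spots of its section within 5% of its UMIs. The median of this ratio was 0.995 in CON (111 spots with at least 5 matches), 1.003 in RES (120 spots) and 0.989 in SUS (110 spots). The mean of 0.996 ± 0.00735 (SD, n = 3) lay within its spread of 1. An exact two-sided sign-flip permutation test over the 3 sections gave p = 0.5, where 0.25 is the smallest possible. The interval of the SUS section alone (0.983 to 0.993) left out 1. Against single areas, the ratio was below 1 in 3 of 3 sections for PTL, AUD and TEP (means of 0.992, 0.996 and 0.992). Against SSp it was above 1 in 1 section. In interior spots (0.994) and at 10000 to 15000 UMIs (0.984) the mean ratio was lower, with 3 of 3 sections below 1.

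The measure in which RSP stood apart was the mitochondrial percentage. The lowest, median and highest RSP spot had 6.25%, 13.2% and 21.8% mitochondrial UMIs in CON. In RES they had 7.71%, 12.4% and 21.9%, and in SUS 5.52%, 10.7% and 23.4%. The medians of the other Isocortex spots were 10.5%, 8.54% and 6.60%. RSP was higher by 2.71 percentage points (interval 1.83 to 3.32) for CON, by 3.88 (2.90 to 4.37) for RES and by 4.10 (3.21 to 5.02) for SUS. The mean difference of 3.56 ± 0.743 points (SD, n = 3) had the same direction in 3 of 3 sections. An exact two-sided sign-flip permutation test gave p = 0.25, the smallest that 3 sections allow, and 0.5 after Benjamini-Hochberg adjustment over the 6 measures.

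The populations of spots overlapped all the same. Above the upper quartile of the other Isocortex spots were 79 of 120 RSP spots in CON, 105 of 125 in RES and 97 of 111 in SUS. If 1 RSP spot and 1 other Isocortex spot of a section are paired in all ways, RSP was the higher in 76.4%, 85.1% and 84.9% of pairs. RSP had the highest median of the 5 Isocortex areas in each section. The nearest was SSp, whose medians of 11.7%, 9.50% and 7.24% lay 1.47, 2.92 and 3.46 points under RSP. TEP was farthest, at 6.48, 6.82 and 5.40 points. Among the 14 areas with at least 20 spots in every section, RSP was first in CON, just ahead of thalamus (TH) at 12.9%. It was second to dentate gyrus (DG) at 12.9% in RES and second to hypothalamus (HY) at 11.1% in SUS, so the neighbours of RSP in this order were not cortical areas. The medians of TH and HY lie within the intervals of the RSP median, 12.6 to 13.6% in CON and 9.99 to 11.5% in SUS, and that of DG lies above it in RES (11.6 to 12.7%).

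The difference was also present at matched deposited UMIs, which appear to leave out mitochondrial transcripts and so do not match total depth. Against other Isocortex spots matched within 5% of UMIs, the mean difference was 3.60 points, and with RSP and other spots both limited to 10000 to 15000 UMIs it was 4.66 points. Without the spots at the outer surface or at the medial limit of the table it was 3.25 points, and the RSP medians there were 13.0%, 11.7% and 10.1% against 10.3%, 8.36% and 6.38%.

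**Figure D2:**
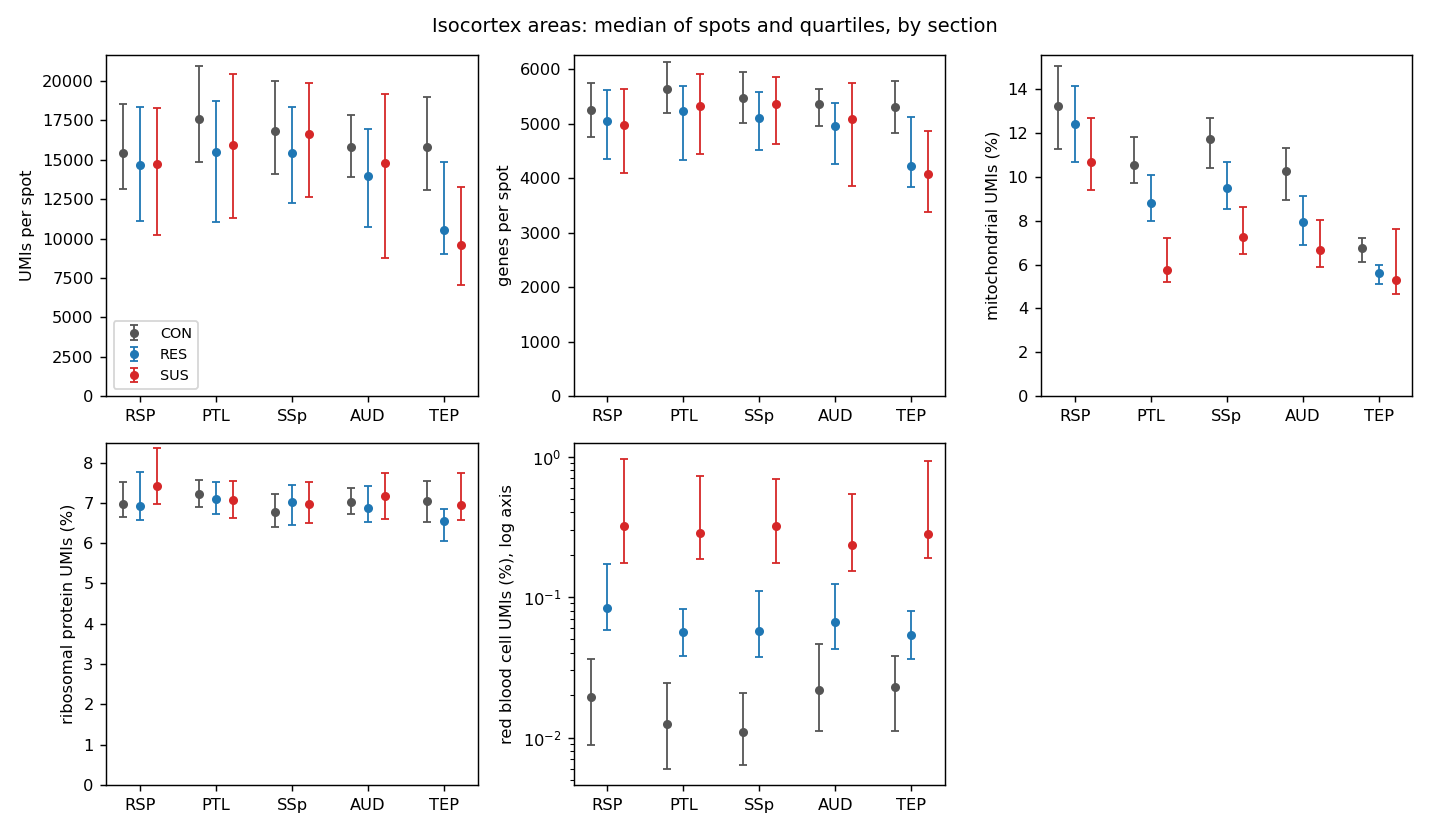
Median (points) and quartiles (bars) of the spots of the 5 Isocortex areas in the CON, RES and SUS sections, for UMIs, genes and the 3 percentages, with red blood cell UMIs on a log axis. RSP has the highest mitochondrial median in each section, from 10.7% in SUS to 13.2% in CON, while its UMIs and genes lie among those of the other areas.

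The ribosomal percentage of RSP was near that of the pooled other cortex in 2 sections. Medians were 6.98%, 6.93% and 7.42%, against 6.97%, 6.91% and 7.04% in the other Isocortex areas. The difference was 0.0110 points (interval -0.158 to 0.258) for CON, 0.0179 (-0.163 to 0.343) for RES and 0.382 (0.107 to 0.819) for SUS. Against single areas, RSP was higher by 0.198 points than SSp in CON (0.0119 to 0.511). It was higher by 0.381 points than TEP in RES (0.185 to 0.852). The other single-area intervals of CON and RES held 0. The mean of 0.137 ± 0.212 points (SD, n = 3) was smaller than its spread. Against PTL alone the mean difference had the other sign, at -0.0165 points, and among spots of 10000 to 15000 UMIs it was 0.472 points, above 0 in 3 of 3 sections (0.0496 to 0.952).

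Red blood cell transcripts were a small share of RSP in CON and RES and a larger one in SUS. The lowest, median and highest RSP spot had 0, 0.0193% and 1.44% in CON, with 12 spots at 0. In RES they had 0.0178%, 0.0831% and 13.5%, and in SUS 0.0689%, 0.323% and 11.4%. The RSP median was above that of the other Isocortex areas by 0.00469, 0.0239 and 0.0437 points, and only in RES did the interval of the difference (0.00860 to 0.0422) leave out 0. Among interior spots, whose 6 neighbours are all listed and of the same area, the mean difference was -0.00133 points, so its sign depended on the spots along the borders. With all spots kept, the differences between medians had a mean over the sections of 0.0241 ± 0.0195 points (SD, n = 3; exact sign-flip permutation p = 0.25).

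Across the width of RSP, from its border with PTL toward the medial side, the mitochondrial percentage was higher with distance in all 3 sections. In the tertile of spots nearest to PTL CON had a median of 11.2%, RES of 10.8% and SUS of 9.71%. In the middle tertile it was 13.6%, 13.2% and 10.4%. In the tertile farthest from PTL it was 13.6%, 12.7% and 11.8%. Spearman's rho with the distance to the nearest PTL spot was 0.339 over 120 spots in CON, 0.333 over 125 in RES and 0.369 over 111 in SUS. These are descriptions, since spots of a section share a library and their neighbours. Given the distance to white matter, the partial rho was 0.393, 0.342 and 0.376, and among interior spots alone rho was 0.456, 0.0576 and 0.125, and without the spots at the surface or the medial limit 0.579, 0.168 and 0.277, so that the order was weaker in RES and SUS. The mean rho of RSP exceeded that of the other areas toward their own lateral neighbours by 0.0998 ± 0.155 (SD, n = 3), less than its spread, and AUD and TEP had mean rho of 0.439 and 0.379. A slope of this kind was therefore not shown to be particular to RSP.

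The step at the border itself differed between sections. Within 200 μm of the border, RSP had 10.4% and PTL 10.5% in CON, and the value of RSP was 13.3% in the next 200 μm. In RES the values were 10.7% in RSP and 10.00% in PTL within 200 μm, and 12.4% in the next 200 μm of RSP. In SUS RSP had 9.48% and PTL 6.08% within 200 μm of the border. The CON and RES profiles thus passed from PTL into RSP without a step beyond the quartiles of the spots, whereas in SUS the quartiles of the 22 RSP spots (7.21 to 11.4%) and the 22 PTL spots (5.26 to 7.03%) at the border did not overlap. The difference between the sections was not tested, as each has 1 border.

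**Figure D3:**
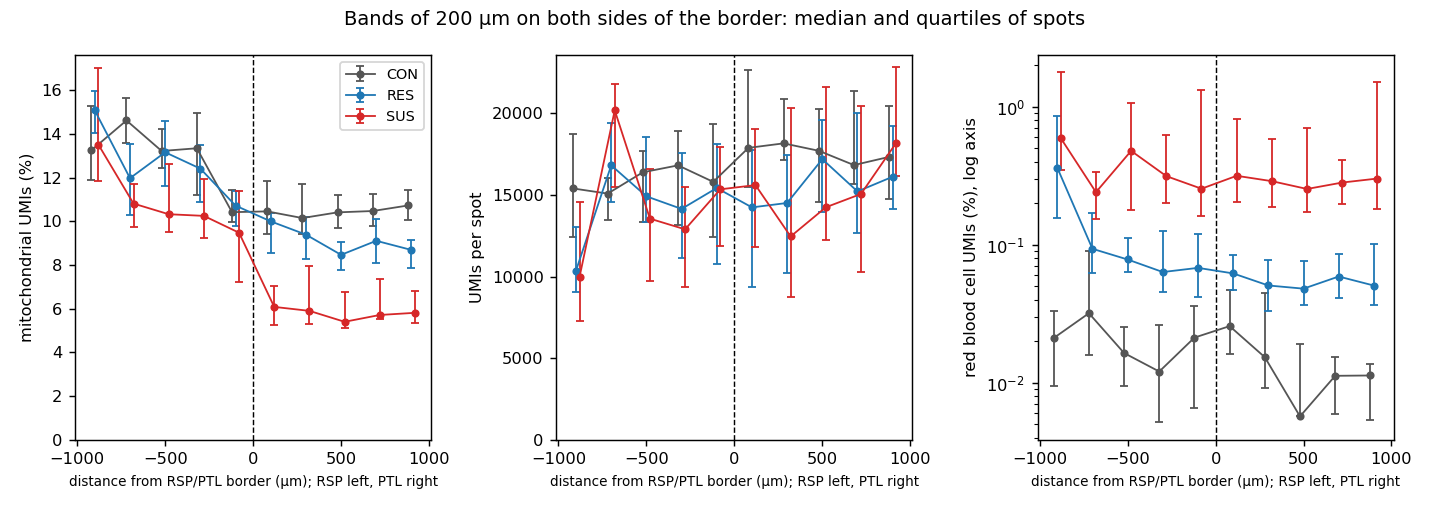
Median (points) and quartiles (bars) of mitochondrial percentage, UMIs and red blood cell percentage (log axis) in bands of 200 μm on both sides of the border between RSP (left, negative distance) and PTL (right, positive distance), for bands of at least 10 spots. A lower quartile of 0 is not drawn. The SUS line steps from 9.48% in RSP to 6.08% in PTL at the border, and the CON line is level there, at 10.4% and 10.5%.

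The band 800 to 1000 μm from PTL, at the medial end of RSP, stood apart in RES and SUS but not in CON. It had a median of 10367 UMIs in RES (17 spots) and 9977.5 in SUS (18 spots), against 15406.5 in CON (22 spots). In the 200 μm before it, RES had 16820 and SUS 20194 UMIs. Red blood cell transcripts in the last band were 0.362% in RES and 0.591% in SUS, against 0.0211% in CON. The mitochondrial medians there were 13.2% in CON, 15.1% in RES and 13.5% in SUS, the highest band of RSP in RES and SUS, while in CON the band from 600 to 800 μm was higher at 14.6%. UMIs over the whole width showed little order, with rho of -0.120, -0.0502 and -0.0225, but the sections spread from -0.191 to 0.338 among interior spots. The red blood cell percentage had a rho of 0.364 with width in RES, against 0.101 in CON and 0.0912 in SUS.

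In RES and SUS, the spots along the medial limit of the table went the same way as that band. Their share in the values of the band was not examined. The RSP spots that adjoin covered tissue outside the table had medians of 15235, 10367 and 8588 UMIs. Their mitochondrial medians were 12.3%, 15.1% and 16.6%. Their ribosomal medians were 7.22%, 8.26% and 8.96%, and their red blood cell medians 0.0136%, 0.545% and 1.18%. In CON these spots had values near the RSP medians, and in RES and SUS they had fewer UMIs and a higher share of all 3 gene classes. The red blood cell values moved together with the mitochondrial and UMI values, and their part in them was not tested. The deposited UMIs appear to leave out mitochondrial and red blood cell transcripts, so part of this link may be built in. The tissue on the far side of these spots was not analysed here.

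The outer surface gave a pattern that RSP shared with other cortex. RSP spots that adjoin bare slide had a median of 10162 UMIs in CON (13 spots), 9182 in RES (11 spots) and 7336 in SUS (11 spots). Their mitochondrial medians were 18.9%, 17.1% and 13.9%, above the RSP median of each section. As for the spots at the medial limit, part of the link between fewer UMIs and higher percentages may be built in. In the other Isocortex areas, surface spots had 17.1%, 18.7% and 15.9%, so that RSP was the higher in 1 of 3 sections only. The spot with the highest mitochondrial percentage of RSP adjoined bare slide in each section.

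From the white matter toward the surface, the ribosomal percentage and the genes at matched UMIs were ordered most plainly. The tertile of RSP spots nearest to FB had ribosomal medians of 7.62%, 7.78% and 8.21%, the middle tertile 6.86%, 6.87% and 7.39%, and the tertile farthest from FB 6.78%, 6.57% and 7.05%. The Spearman correlation with the distance to the nearest FB spot was -0.499, -0.613 and -0.406. The mean over the other areas was -0.455, with a value above 0 only in TEP of SUS (0.0097), and the difference of -0.0513 ± 0.129 (SD, n = 3) was within its spread. Genes at matched UMIs went the other way. Their ratio was 0.986, 0.980 and 0.974 in the tertile nearest to FB and 1.01, 1.02 and 1.003 in the farthest. The Spearman correlation was 0.626, 0.654 and 0.558, with a mean of 0.613 ± 0.0495 in RSP against 0.614 in the other areas. Both depth patterns were thus shared with other cortex. The ribosomal one was weaker in the adjoining PTL in each section, with a mean rho of -0.183 against -0.506 in RSP.

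The course of UMIs over depth differed between sections. In CON the RSP medians were 13383.5 UMIs in the tertile nearest to FB, 16718.5 in the middle and 17603 in the farthest tertile. In RES they were 13581.5, 16379.5 and 14636, and in SUS 15496, 15171 and 12609. The SUS order is the reverse of the CON order, with a rho of -0.173 against 0.288 in CON and 0.127 in RES. The mean rho of RSP was 0.0804 ± 0.234 and that of the other areas -0.245. SSp, the area nearest to RSP in this, had a mean of -0.0743 with positive values in CON (0.158) and RES (0.0533). RSP lay above the mean of the other areas in 3 of 3 sections by 0.326 ± 0.0567 (SD, n = 3; exact two-sided sign-flip permutation p = 0.25, the smallest possible). Without the spots at the surface or the medial limit rho was 0.601, 0.380 and 0.0757 in RSP, so that the SUS value changed sign, and its mean was 0.352 against -0.103 in the other areas, which had 0.127 in CON. RSP was again above their mean in 3 of 3 sections, by 0.456 ± 0.0531 (SD, n = 3).

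Spots at the white matter were shallow in CON and less so in RES and SUS. RSP spots that touch FB had a median of 3629 UMIs in CON (11 spots), 8568 in RES (10 spots) and 11599 in SUS (11 spots). Other Isocortex spots that touch FB had 11761, 10616 and 14558 UMIs, more than RSP in each section. Fewer than 5000 UMIs were found in 7, 5 and 3 RSP spots, of which 6, 3 and 1 touch FB. In SUS the spots at the surface and at the medial limit had lower medians than those touching FB, 7336 and 8588 UMIs. The spot with the fewest UMIs of RSP touched FB in all 3 sections, and had 914, 1104 and 944 genes. The mitochondrial percentage was not raised in these spots. Its median in RSP spots touching FB was 11.7%, 10.3% and 9.09%, below the RSP median of each section.

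**Figure D4:**
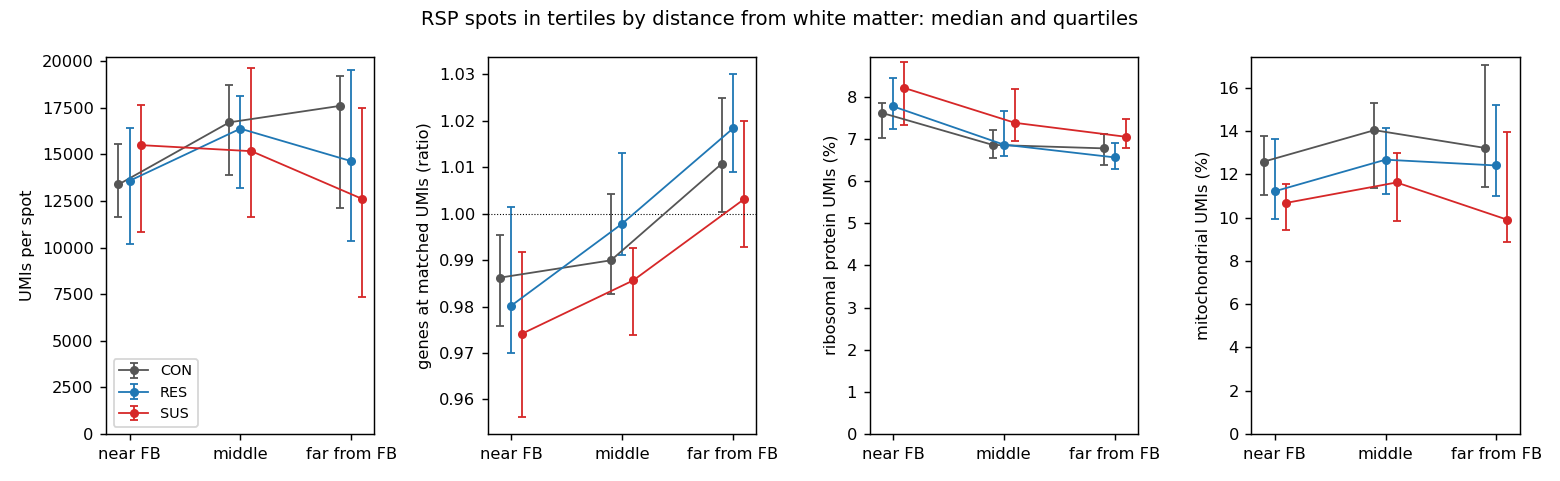
RSP spots in tertiles by distance from white matter (FB), with the median (points) and quartiles (bars) of UMIs, genes at matched UMIs (ratio to other Isocortex spots, dotted line at 1), ribosomal percentage and mitochondrial percentage, for the CON, RES and SUS sections. Ribosomal percentage is lower and genes at matched UMIs are higher away from FB in each section, and UMIs go from 13383.5 to 17603 in CON but from 15496 to 12609 in SUS.

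Between sections, the mitochondrial percentage and the red blood cell percentage of RSP differed most. Relative to CON, the RSP mitochondrial median differed by -0.799 points (interval -2.02 to 0.143) for RES and by -2.52 points (-3.62 to -1.12) for SUS. Pooled, the other Isocortex areas differed by more, -1.96 points in RES and -3.91 in SUS, though TEP alone differed by less than RSP in SUS (-1.44 points). Taken relative to those areas, RSP was higher than in CON by 1.17 points in RES and by 1.38 points in SUS. Relative to the median of the whole section the differences were 0.0337 and -0.0808 points. The sign of the difference from CON therefore depends on what it is taken relative to. PTL, the adjoining area, was lower than in CON by more than RSP was in both sections (-1.74 and -4.80 points).

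The red blood cell median of RSP was 4.30 times the CON value for RES (interval 3.11 to 7.12) and 16.7 times for SUS (10.9 to 38.9). The other Isocortex areas had 4.04 and 19.1 times the CON value. At least 1% red blood cell UMIs were found in 3 of 120 RSP spots of CON (2.5%, interval 0.519 to 7.13), 7 of 125 of RES (5.6%, 2.28 to 11.2) and 27 of 111 of SUS (24.3%, 16.7 to 33.4). Over whole sections they were found in 49 of 2881, 126 of 2828 and 508 of 2840 spots. Of these RSP spots, 2, 4 and 13 lay at the surface or at the medial limit, where 24, 23 and 21 RSP spots lie in all. In SUS 13 of those 21 spots thus reached 1%, and 10 of the 27 spots were interior. At least 0.1% was found in 9.17% of RSP spots of CON, 40.8% of RES and 91.9% of SUS, near the shares over all spots of those sections (9.34%, 35.3% and 94.2%).

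UMIs and genes of RSP differed little between sections. Median UMIs of RES were 0.952 times those of CON (interval 0.812 to 1.08), and those of SUS 0.956 times (0.756 to 1.10). Relative to the median of the whole section, which was lower in RES and SUS, the ratio was 1.22 in RES and 1.13 in SUS. By depth, SUS RSP had 1.16 times the UMIs of CON in the tertile nearest to FB and 0.716 times in the tertile farthest from it. RES RSP had 1.01 and 0.831 times. In that farthest tertile of SUS the red blood cell median was 0.671%, against 0.262% nearest to FB. Its part in the lower UMIs was not tested. Genes at UMIs matched to spots of the same area in the CON section were 0.984 times those of CON in RES and 0.975 times in SUS, where the other Isocortex areas had 0.981 and 0.988 times. The ribosomal percentage of RSP was above CON by 0.439 points in SUS (interval 0.00894 to 0.907), against 0.0677 points in the other areas (-0.0690 to 0.160), and differed by -0.0494 points in RES (-0.360 to 0.314).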

How the data were processed

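Per the labels and the methods of the study, libraries followed the 10x Genomics Visium protocol, and reads were processed with Space Ranger 1.0.0 or ST Pipeline and mapped to mm10, with spots below 200 UMIs removed. The deposited table gives, for each spot, a count of UMIs without normalization, the number of genes, and 3 percent values that the authors derived (mitochondrial, ribosomal, red blood cell). For these percentages neither gene lists nor totals are given in the sources used here. Mitochondrial percentage times deposited UMIs gave a whole number within 0.01 in 5 of 356 RSP spots, so the percentages rest on another total and were compared only as percentages. From the values of extreme RSP spots, the deposited UMIs appear to leave out mitochondrial and red blood cell transcripts. This was not tested over all spots. In that case a higher share of these transcripts goes with fewer deposited UMIs by construction.

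Spots were joined to their places by section and barcode, with all 356 RSP spots under tissue. Sections were matched to samples by title. Medians have 95% order-statistic intervals. The interval of a ratio or difference of medians combines the outer bounds of both. RSP was compared with other Isocortex areas within a section by an exact two-sided sign-flip permutation test over 3 sections. No test between conditions and no p-value over spots was calculated, and no comparison ran over genes. Distance to the nearest PTL spot gave the width and distance to the nearest FB spot the depth. Distances, intervals and correlations were tested on simulated data. The area and the measures were chosen with earlier results of these data known, and no gene is named. Python 3.11.15 was used with scipy 1.17.1, numpy 2.4.6, matplotlib 3.10.9 and pandas 2.3.3.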

Additional observations from a re-analysis of the deposited data

How the results depend on the processing

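The mitochondrial excess of RSP over the other Isocortex areas kept its sign under all alternatives to the pooled comparison (3.25 to 4.66 points), as did the width slope of the mitochondrial percentage. Against single areas the mean excess ranged from 2.62 points (SSp) to 6.24 points (TEP). Edge spots are those at the outer surface or at the medial limit of the table. The mean ratio of UMIs to the other areas passed 1 with interior spots (1.0006), without edge spots (1.008) and with areas weighted equally (1.009), and that of genes without edge spots (1.002) and with equal weights (1.0009). The ribosomal difference was -0.0165 against PTL alone, and the red blood cell difference -0.00133 in interior spots and -0.000503 at 10000 to 15000 UMIs. Leaving out each section gave 3.30 to 3.99 points for the mitochondrial excess, 0.961 to 0.999 for the UMI ratio and 0.336 to 0.354 for the mean mitochondrial width rho, and -0.0232 to 0.207 for the mean depth rho of UMIs.

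At 10000 to 15000 UMIs the RSP medians (CON, RES, SUS) were 4802, 4687.5 and 4536 genes and 14.1%, 13.6% and 11.9% mitochondrial, with 7.33% (RES) and 7.90% (SUS) ribosomal and 0.243% (SUS) red blood cell. Means were 0.0687%, 0.354% and 1.05% for red blood cell and 7.20% for ribosomal in RES. Interior spots had 16065.5 UMIs, 5319 genes and 0.0684% red blood cell in RES and 16058, 5211 and 0.249% in SUS, and RES had 15802 UMIs without edge spots.

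Against CON, relative to the other Isocortex areas, the RES values were 1.08 times the UMIs, 1.17 mitochondrial points and 0.0192 red blood cell points, and the SUS values 1.38 and 0.0390 points. Relative to the whole section they were 1.22 times the UMIs, 1.11 times the genes and 0.00773 red blood cell points in RES, and 1.13 times, -0.0808 mitochondrial and 0.0373 red blood cell points in SUS. Mean differences in red blood cell percentage were 0.285 (RES) and 0.977 (SUS) points, and 0.223 in SUS at 10000 to 15000 UMIs.

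Mean rho with width, in interior spots and without edge spots, was 0.0959 (-0.191 to 0.338 over sections) and 0.103 (-0.152 to 0.278) for UMIs, 0.0998 and 0.0953 for genes and -0.0863 and -0.0856 for ribosomal percentage. For mitochondrial percentage it was 0.213 in interior spots (0.0576 to 0.456 over sections) and 0.371 as partial rho. Mean rho with depth without edge spots was 0.352 (UMIs), 0.413 (genes), -0.0133 (mitochondrial), -0.614 (ribosomal) and 0.668 (genes at matched UMIs), and in interior spots 0.377 (genes), -0.145 (mitochondrial) and 0.689 (genes at matched UMIs). Alternatives without edge spots (and interior spots for the slopes of other areas), at matched UMIs and without the first grid row, and other red blood cell thresholds, were chosen after seeing the data. At 0.5% in place of 1%, 5, 13 and 46 RSP spots passed, and at 2% 0 did in CON and 15 in SUS. The causes of these shifts were not tested. No paired analysis was possible because the labels carry no replicate numbers that could pair sections of different conditions, each of which has 1 section (areas were compared within sections). The 3 sections, and the 111 to 125 RSP spots in each, set the precision.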

Other observations

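Adjacent RSP spots resembled each other. The rho between the ribosomal percentage of an RSP spot and the mean of its neighbours was 0.572, 0.772 and 0.659 (CON, RES, SUS), the highest of the 5 deposited measures in each section. For UMIs it was 0.465, 0.451 and 0.615, and for mitochondrial percentage 0.533, 0.337 and 0.345. In RSP spots UMIs and mitochondrial percentage had a rho of -0.296, -0.460 and -0.523, and UMIs and ribosomal percentage -0.428, -0.559 and -0.517. UMIs and red blood cell percentage had a rho of -0.0916 in CON, against -0.501 in RES and -0.393 in SUS. Mitochondrial and ribosomal percentages had a rho of -0.0549 in CON and 0.120 in RES but 0.441 in SUS, where the other Isocortex areas had 0.396 to 0.719. All these are over the spots of 1 section, which share a library.

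Few RSP spots held much of the red blood cell signal. The 5 highest spots carried 61.1%, 56.6% and 34.6% of the summed percentage. The highest RSP spot, with 13.5% in RES, adjoined bare slide and had 8015 UMIs, and the highest in SUS, with 11.4%, adjoined bare slide and had 7501 UMIs. In CON the highest, with 1.44%, was interior and had 17620 UMIs. The spot with the most UMIs of RSP was interior in each section.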
